A study of Sus scrofa with 16 samples.

Results

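The insulin-like growth factor family was taken as every probe set of a porcine Affymetrix array whose platform symbol was IGF1, IGF2, IGF1R, IGF2R or one of IGFBP1 to IGFBP6. A probe set is a group of short probes on the array that together read one transcript or group of transcripts. The rule found 25 of the 23935 probe sets tested, and they represent 8 of the 10 genes: 13 probe sets for IGF2, 3 for IGF1, 2 each for IGF1R, IGFBP1 and IGFBP6, and 1 each for IGF2R, IGFBP2 and IGFBP5. No probe set carried the symbol IGFBP3 or IGFBP4, and these genes were not analysed here. The study concerned physiological growth of the left ventricle in pigs, and total RNA of whole left ventricular tissue was measured on 1 array per animal. The exercised group held 8 Yorkshire x Landrace pigs, 4 females and 4 castrated males, sampled 4 to 5 weeks into a training protocol whose kind and intensity the labels do not give. The sedentary group held 8 pigs of the same cross, also 4 females and 4 castrated males. All animals were 2 to 3 months old, and every male in both groups was castrated. No genetic change or drug is named for either group. All values are log2 signals, so a difference of 1 is a doubling.

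IGF1 and IGF2 are secreted growth factors that act through the receptor tyrosine kinase IGF1R, which passes the signal to the PI3K-AKT and MAP kinase pathways. IGF2R, also the mannose 6-phosphate receptor, takes up IGF2 for breakdown, and the binding proteins carry the growth factors and limit or prolong their action. In heart muscle, signalling through IGF1R is known for its part in growth of the cardiomyocytes during training, and IGF2 is an imprinted gene that is most active before birth. In the pig annotation IGF2 lies next to INS, IGFBP2 next to IGFBP5, and IGFBP1 next to IGFBP3.

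The tissue label was checked against cardiomyocyte markers: all 11 listed genes, among them MYH7 and TNNT2, were measured and lay at percentile 98.1 of signal or above. The r of an array against the average of the rest was 0.988 to 0.994. The 36 probe sets for bacterial poly-A control transcripts parted the arrays into 2 sets that the labels do not name. Array set 1 held 6 exercised and 5 sedentary animals, with a mean control signal of 8.30 ± 0.39 (SD over arrays, n = 11). Array set 2 held exercised animals 7 and 8, both castrated males, and sedentary animals 6 to 8, with a mean control signal of 6.37 ± 0.24 (SD, n = 5). The gap between the 3′ and 5′ actin probe sets, a sign of RNA length, averaged 2.19 in array set 1 and 1.38 in array set 2. As array set 2 held 0 exercised females, array set and sex are partly entangled, and values within the array sets are given below beside the members described.

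At an adjusted p under 0.05, limma called 2 of the 25 family probe sets lower in exercised animals, both of them IGF2, and 0 higher. Across all probe sets tested, limma called 13.4% at an adjusted p under 0.05, of which 6.48% were higher and 6.88% lower in exercised animals. The family's count was therefore not above the background. Over the 25 members the median difference, exercised minus sedentary, was -0.11 log2, with 16 negative and 9 positive, and the median over all probe sets was 0.00. Calls were unevenly spread over signal: 26.4% of probe sets between the 20th and 40th percentiles were called, and 3.49% of those above the 80th, where 9 of the 25 members lie. Both called IGF2 probe sets lay between the 40th and 60th percentiles, where 15.1% of all probe sets and 2 of 7 members were called.

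**Figure D1:**
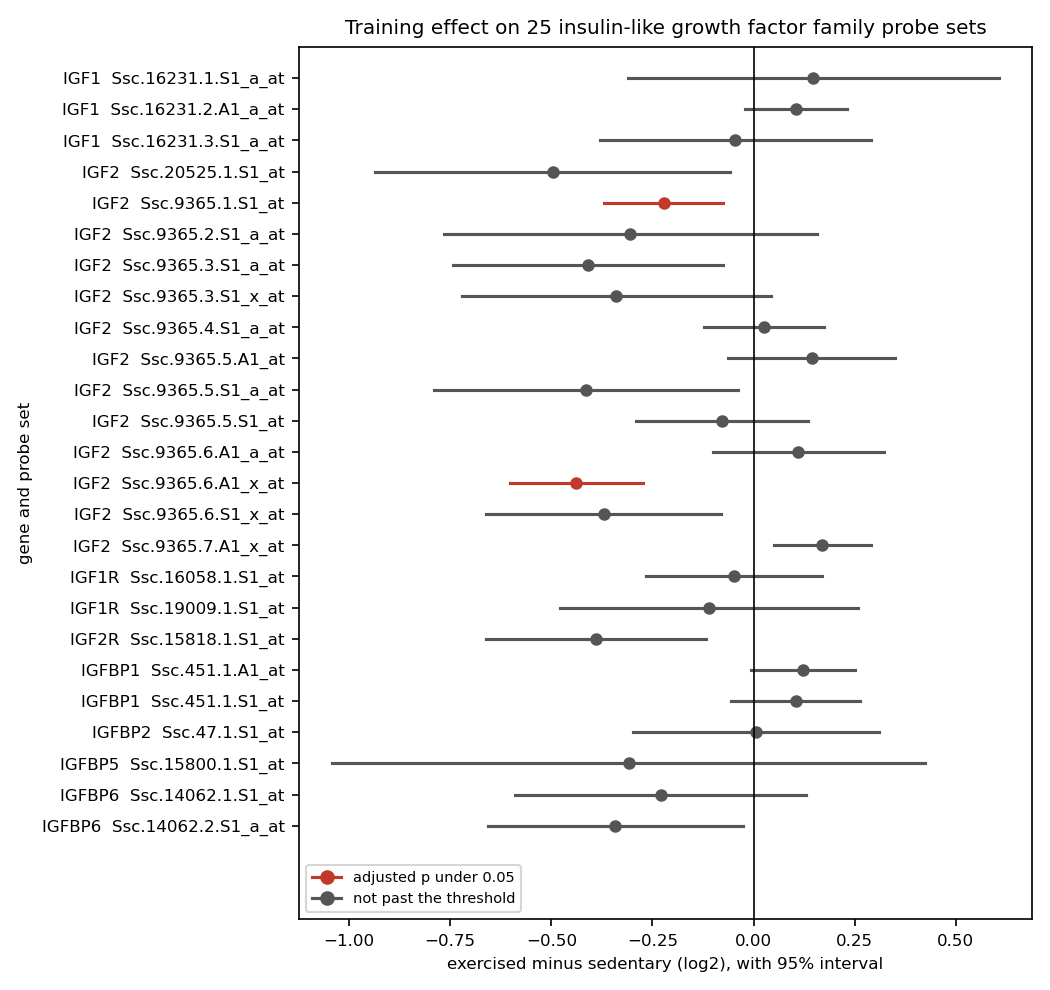
Training effect on each of the 25 family probe sets, as exercised minus sedentary in log2, with points for the estimate and lines for the 95% interval from limma. The 2 probe sets in red, both IGF2, had an adjusted p under 0.05, and 16 of the 25 points lie below 0.

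The 13 IGF2 probe sets fell into a bright and a dim kind. Above the 80th percentile were 6 probe sets with mean levels of 8.86 to 10.89 log2. They followed each other closely over the 16 arrays, with pairwise r of 0.80 to 0.98 and a median of 0.94, and of 0.65 to 0.99 once the means of the array sets were taken out. The other 7 had levels of 5.14 to 6.30, and r among them ran between -0.74 and 0.41, with a median of -0.03. A suffix _a_at on a probe set stands for several transcripts of one gene, and _x_at for probes that may also bind other sequences. These correlations describe arrays that share a platform and, within an array set, control signal, and the probe sets of one gene are not replicates.

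**Figure D2:**
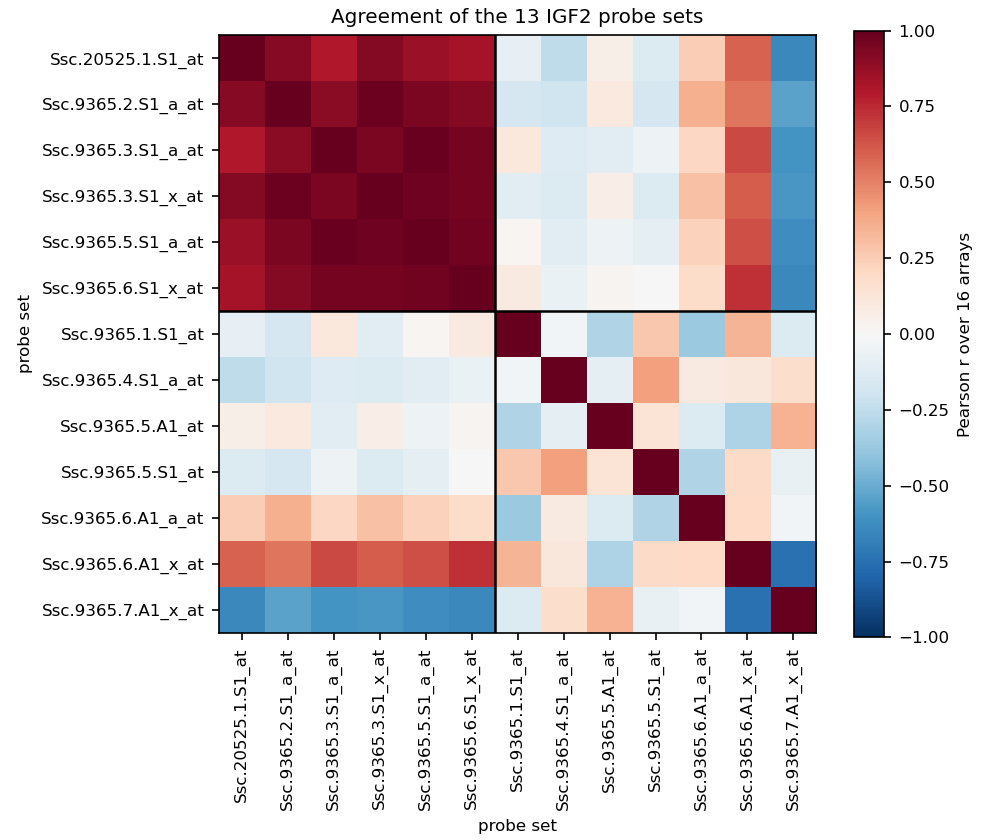
Pearson r between the 13 IGF2 probe sets over the 16 arrays, with the 6 bright probe sets above and left of the black lines. The bright block is uniformly dark red, at r of 0.80 or more, and the dim probe sets show no such block.

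The brightest IGF2 probe set, Ssc.9365.2.S1_a_at, ran between 10.23 and 11.84 with a median of 10.50 in exercised animals, and between 10.26 and 11.45 with a median of 11.13 in sedentary animals. The groups overlapped over most of their range, and the highest animal of all was exercised animal 8. The means were 10.74 ± 0.55 and 11.04 ± 0.41 (SD, n = 8 each), a difference of -0.30 log2 (SE 0.22, 95% interval -0.77 to 0.16, adjusted p = 0.409). The bright probe set with the largest difference, Ssc.20525.1.S1_at, had a median of 8.42 in exercised animals (range 7.98 to 9.52) and of 9.06 in sedentary animals (range 8.50 to 9.72). It differed by -0.50 log2 (SE 0.21, 95% interval -0.94 to -0.06, adjusted p = 0.131), with 6 of 8 exercised animals below the sedentary mean. The 6 bright probe sets all had a lower mean in exercised animals, by -0.30 to -0.50 log2, or 1.24-fold to 1.41-fold, and 0 of the 6 passed the threshold (adjusted p of 0.0877 to 0.409). Since they read one gene and follow each other, their shared sign counts as 1 observation. In whole tissue, fewer cells of a type and less RNA per cell cannot be told apart.

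**Figure D3:**
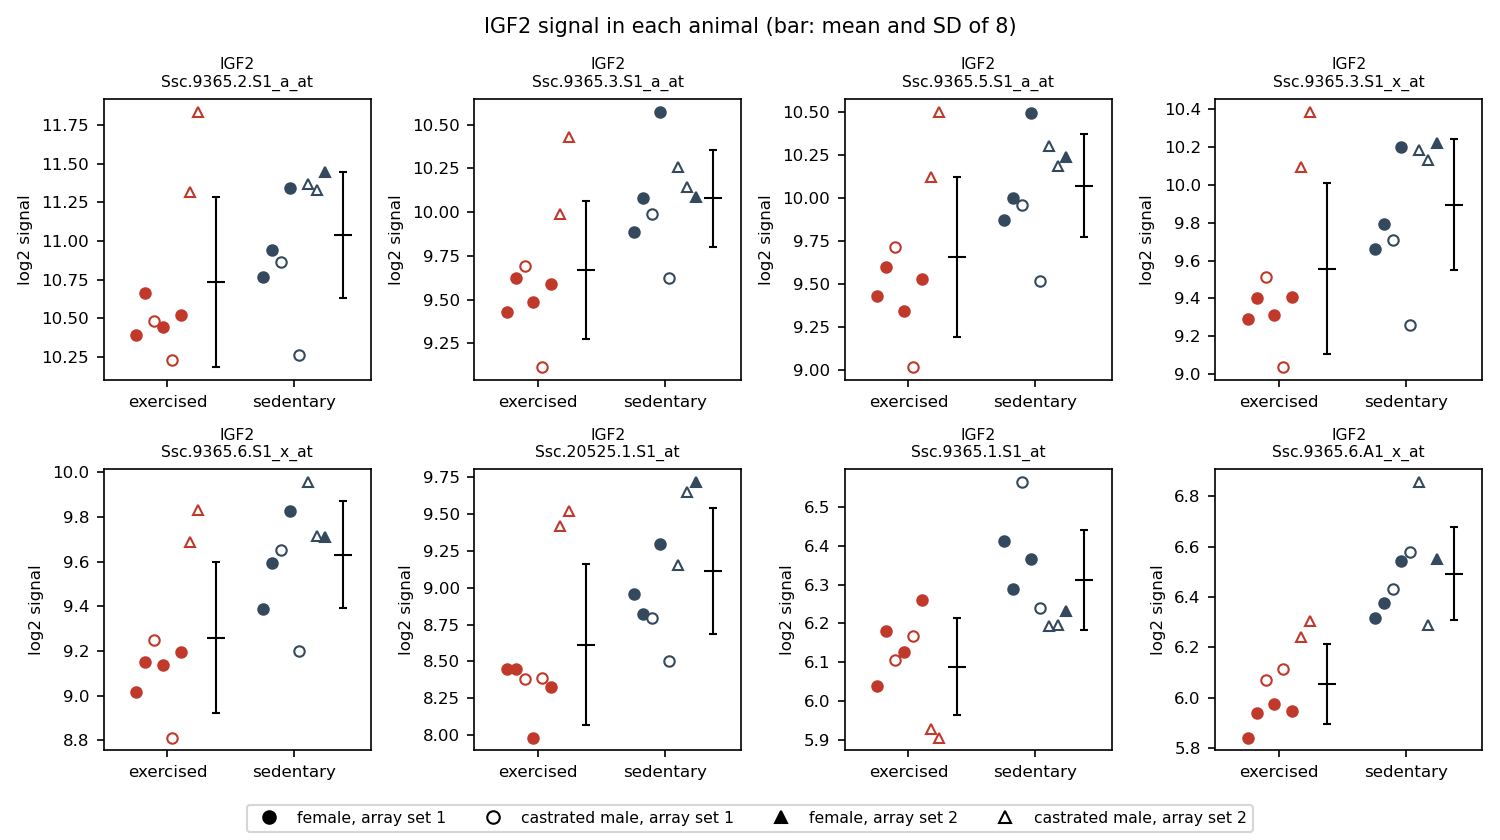
Signal of the 6 bright IGF2 probe sets and of the 2 called ones in each animal, in log2, with colour for training, filled marks for females, open marks for castrated males, circles for array set 1, triangles for array set 2, and a bar for the mean and SD of 8. In the bright probe sets exercised animals 7 and 8 (red triangles) lie above the other 6 exercised animals; in the 2 called probe sets all 8 exercised animals lie below the sedentary mean.

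Over all animals, bright IGF2 signal differed more between the array sets than between the groups. It was 0.45 to 0.92 log2 higher in array set 2 than in array set 1 with both groups pooled. In all 6 bright probe sets this gap was larger among exercised than among sedentary animals. For Ssc.9365.3.S1_a_at the means in array sets 1 and 2 were 9.49 and 10.21 in exercised animals, and 10.03 and 10.16 in sedentary animals. That was the smallest sedentary gap, and the largest was for Ssc.20525.1.S1_at, at 8.87 and 9.51. Within array set 1 the 6 differences, exercised minus sedentary, ran between -0.38 and -0.54, and within array set 2 between -0.04 and 0.20. For Ssc.20525.1.S1_at in array set 1, the exercised animals ran between 7.98 and 8.45 and the sedentary animals between 8.50 and 9.30, without overlap. In array set 2 its means were 9.47 in exercised and 9.51 in sedentary animals. Over all tested probe sets, 4.13% had every exercised animal below every sedentary animal of array set 1, and of the 25 members 2 did: Ssc.20525.1.S1_at and Ssc.9365.6.A1_x_at. The reverse order was shown by 4.46% of all tested probe sets and by 1 member, the dim IGF2 probe set Ssc.9365.7.A1_x_at. Over all 16 arrays, 3.12% of tested probe sets and 0 of 25 members had groups that did not overlap.

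With the array set as a block, limma called 18.1% of all probe sets and 5 of the 25 members, all 5 lower in exercised animals. They were the 2 called before, the bright IGF2 probe sets Ssc.20525.1.S1_at (-0.39 log2, adjusted p = 0.016) and Ssc.9365.6.S1_x_at (-0.32, adjusted p = 0.0433), and IGF2R. In a fit of array set 1 alone the background was 10.3%, and 4 members were called, all IGF2 and all lower. These were Ssc.9365.6.A1_x_at and the bright Ssc.20525.1.S1_at (-0.49, adjusted p = 0.0274), Ssc.9365.6.S1_x_at (-0.44, adjusted p = 0.0432) and Ssc.9365.3.S1_a_at (-0.52, adjusted p = 0.0466). The brightest probe set, Ssc.9365.2.S1_a_at, passed in neither (block -0.20, adjusted p = 0.302; array set 1 -0.36, adjusted p = 0.116). Exercised animal 8 also bore on the bright signal: without it, 12.4% of all probe sets and 4 members were called, 3 of them bright IGF2 probe sets with adjusted p of 0.0246, 0.0382 and 0.0437. Whether the training difference itself differs between the array sets was not tested, and array set 2 held 2 exercised animals only.

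**Figure D4:**
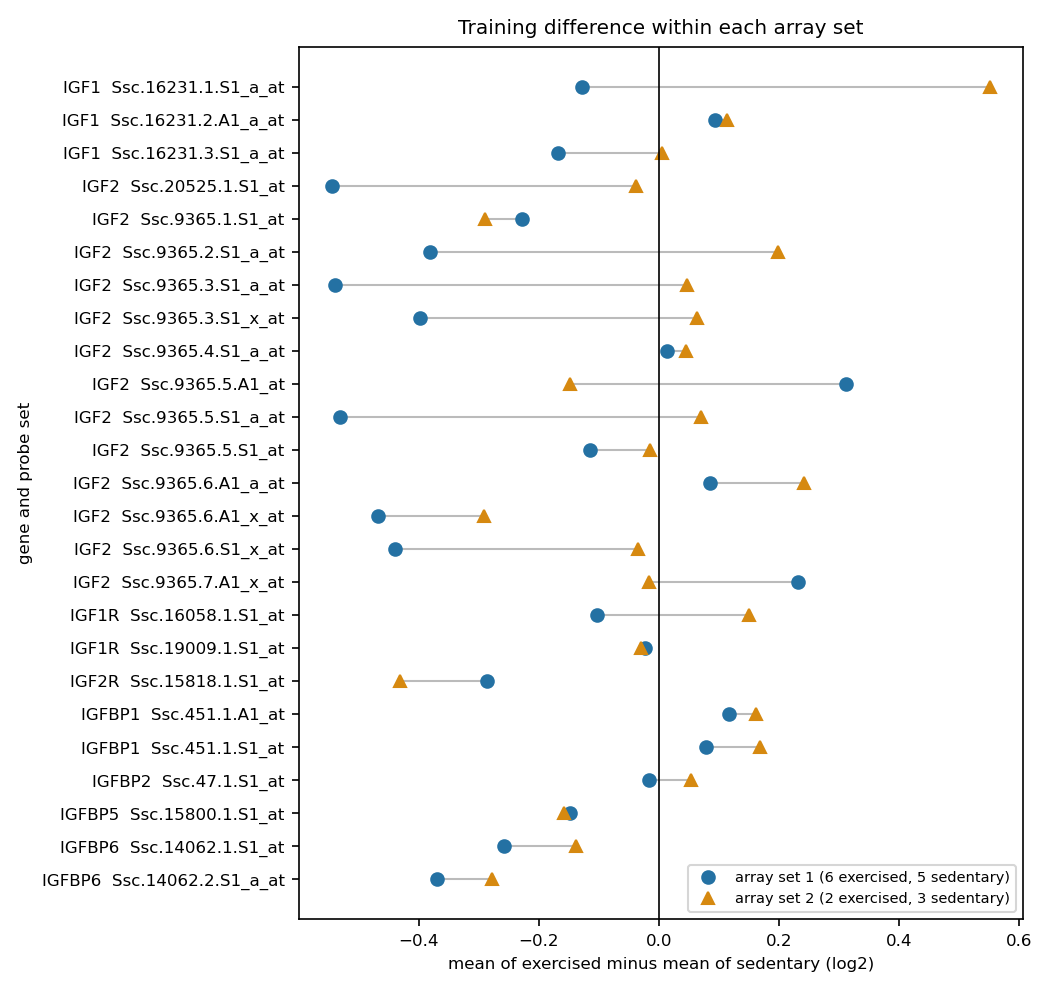
Difference of group means, exercised minus sedentary in log2, for each of the 25 probe sets within array set 1 (blue circles, 6 exercised and 5 sedentary) and array set 2 (orange triangles, 2 exercised and 3 sedentary). The 6 bright IGF2 probe sets lie between -0.38 and -0.54 in array set 1 and between -0.04 and 0.20 in array set 2. IGF2R and both IGFBP6 probe sets lie below 0 in both, as do other members, among them IGFBP5 and both called IGF2 probe sets.

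The IGF2 calls themselves came from the dim kind. Ssc.9365.6.A1_x_at ran between 5.84 and 6.30 with a median of 6.02 in exercised animals, and between 6.29 and 6.85 with a median of 6.49 in sedentary animals. The groups overlapped by a single pair of close values, the highest exercised and the lowest sedentary animal. It fell by 0.44 log2 (SE 0.077, 95% interval -0.60 to -0.27, adjusted p = 0.00161), a 1.35-fold lower signal, with 8 of 8 exercised animals below the sedentary mean. The difference was -0.47 within array set 1 and -0.29 within array set 2. Of the dim kind this one followed the bright probe sets most closely in the positive direction, at r of 0.54 to 0.73. Its suffix marks probes that may bind other sequences, so its signal need not be all IGF2.

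Ssc.9365.1.S1_at had a median of 6.12 in exercised animals (range 5.91 to 6.26) and of 6.26 in sedentary animals (range 6.19 to 6.56). It fell by 0.22 log2 (SE 0.069, adjusted p = 0.0436), with 8 of 8 exercised animals below the sedentary mean. The call lay close to the threshold and held in 6 of the 16 fits that left out 1 animal, in which adjusted p ran between 0.0345 and 0.0889. It held without exercised animal 3, 5 or 6 or sedentary animal 6, 7 or 8, and was lost without any other. The difference was -0.23 within array set 1 and -0.29 within array set 2. With the array set as a block the probe set passed, at -0.25 (limma adjusted p = 0.00776), but not in array set 1 alone, at -0.23 (adjusted p = 0.0833). This probe set did not follow the bright IGF2 signal (r of -0.17 to 0.11) and was only loosely related to the other called one (r of 0.34).

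The remaining 5 dim IGF2 probe sets had differences of both signs and 0 calls. Nearest to the threshold was Ssc.9365.7.A1_x_at, with the opposite sign: 5.47 ± 0.15 in exercised and 5.30 ± 0.06 in sedentary animals (SD, n = 8 each), a difference of 0.17 log2 (SE 0.056, adjusted p = 0.0563). It passed without exercised animal 2 (adjusted p = 0.0448) or 7 (adjusted p = 0.0496). The difference was 0.23 within array set 1 and -0.02 within array set 2. Over the arrays it ran against the bright probe sets, with r of -0.65 against Ssc.20525.1.S1_at. The other 4 differed by -0.08 to 0.14, and the one at 0.14, Ssc.9365.5.A1_at, by 0.31 within array set 1 and -0.15 within array set 2. The mean over all 13 IGF2 probe sets differed by -0.20 log2 (SE 0.090, adjusted p = 0.194 over the means of 6765 genes).

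By sex, 3.72% of all probe sets were called for training in females and 3.77% in castrated males. In females 1 of 25 members was called, Ssc.9365.6.A1_x_at (-0.52 log2, adjusted p = 0.0149), and in castrated males 0 of 25, with the same probe set at -0.36 (adjusted p = 0.0838). With the array set as a block the background was 5.44% in females and 6.49% in castrated males, and 3 members were called in females and 1 in castrated males. In females these were Ssc.20525.1.S1_at (-0.68, adjusted p = 0.0145), Ssc.9365.6.A1_x_at (-0.49, adjusted p = 0.0146) and, with the opposite sign, the dim IGF2 probe set Ssc.9365.5.A1_at (0.45, adjusted p = 0.0397). In castrated males it was Ssc.9365.6.A1_x_at (adjusted p = 0.0499). In array set 1 alone, where the background was 4.09% in females and 0.518% in castrated males, 2 members were called in females, Ssc.20525.1.S1_at and Ssc.9365.6.A1_x_at, and 0 in castrated males. Array set 1 held 4 exercised and 3 sedentary females, but only 2 exercised and 2 sedentary castrated males. The counts of calls in the 2 sexes there thus rest on unequal numbers of animals. The 6 bright IGF2 probe sets differed by -0.50 to -0.90 log2 in females and by -0.24 to 0.01 in castrated males. Within array set 1 alone these ranges were -0.48 to -0.72 in females and -0.21 to -0.40 in castrated males. The test of the difference between the sexes called 0 members, and with limma the background was 0%, 0 of 23935 probe sets, although 621 had an unadjusted p under 0.05. Among the members 2 had such a p, the dim IGF2 probe sets Ssc.9365.5.A1_at and Ssc.9365.5.S1_at. Array set 2 held 2 of the 4 exercised males and 0 exercised females, so for bright IGF2 sex and array set cannot be fully told apart. With the array set as a block the difference between the sexes again called 0 members after adjustment. An unadjusted limma p under 0.05 was found for 868 of the 23935 probe sets and for 3 members. These members were the same 2 dim probe sets and the bright Ssc.20525.1.S1_at (-0.58 log2, female minus castrated male). In array set 1 alone 1204 of the 23935 probe sets and 1 member, Ssc.9365.5.S1_at, had such a p. Averaged over training, 0.0919% of all probe sets and 0 members differed between females and castrated males.

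IGF1, the other ligand, was not called on any of its 3 probe sets. The brightest, Ssc.16231.3.S1_a_at, ran between 7.93 and 8.72 with a median of 8.29 in exercised animals, and between 7.86 and 8.96 with a median of 8.38 in sedentary animals. The groups overlapped throughout, at 8.30 ± 0.33 and 8.35 ± 0.38 (SD, n = 8 each), a difference of -0.04 log2 (95% interval -0.38 to 0.29, adjusted p = 0.898). Its signal was lower in array set 2, with a mean of 7.95, than in array set 1, with a mean of 8.49. Ssc.16231.1.S1_a_at followed it at r of 0.80, with a difference of 0.15 (adjusted p = 0.726) that was -0.13 within array set 1 and 0.55 within array set 2. The third, Ssc.16231.2.A1_a_at, differed by 0.11 (adjusted p = 0.273).

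**Figure D5:**
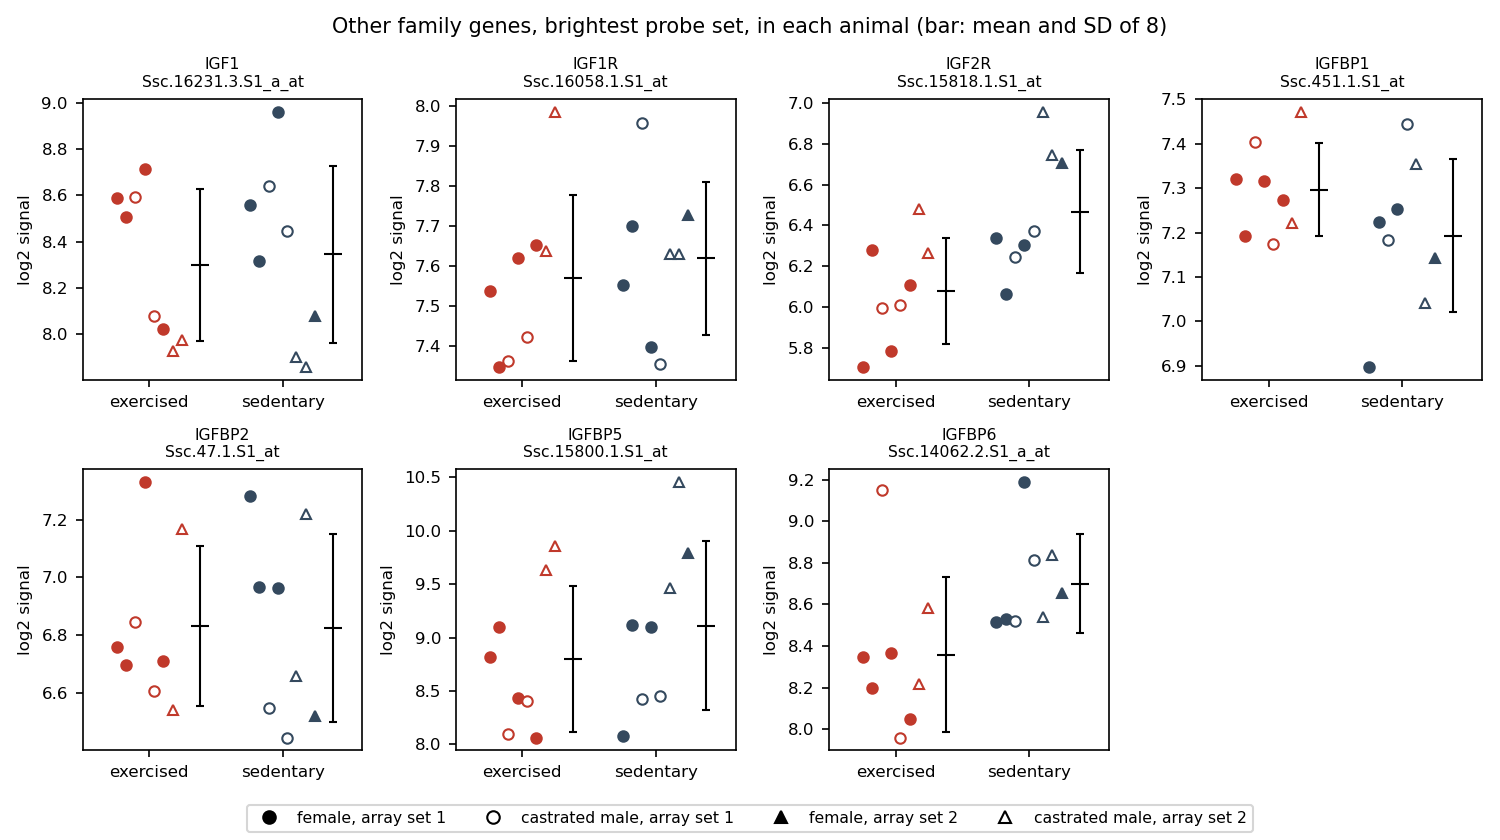
Signal of the brightest probe set of the 7 other genes in each animal, in log2, with the marks and bars used for IGF2 and an axis of its own for each gene. For IGF2R 7 of 8 exercised animals lie below the sedentary mean of 6.47; IGFBP5 is higher on the triangles of array set 2 in both groups.

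Of the receptors, IGF1R showed little difference. Ssc.16058.1.S1_at had 7.57 ± 0.21 in exercised and 7.62 ± 0.19 in sedentary animals (SD, n = 8 each), a difference of -0.05 log2 (95% interval -0.27 to 0.17, adjusted p = 0.817), which was -0.10 within array set 1 and 0.15 within array set 2. Ssc.19009.1.S1_at differed by -0.11 (95% interval -0.48 to 0.26, adjusted p = 0.747), and followed the first at r of 0.62. These intervals leave room for changes of either sign.

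IGF2R, the receptor that removes IGF2, came nearest to the threshold among the genes other than IGF2. Its probe set Ssc.15818.1.S1_at ran between 5.71 and 6.48 with a median of 6.06 in exercised animals, and between 6.06 and 6.96 with a median of 6.35 in sedentary animals. The groups overlapped, with 7 of 8 exercised animals below the sedentary mean. The difference was -0.39 log2 (SE 0.13, 95% interval -0.66 to -0.12, adjusted p = 0.0563), nearly equal in females (-0.38) and castrated males (-0.39). It was -0.29 within array set 1 and -0.43 within array set 2. With the array set as a block it passed, at -0.33 (adjusted p = 0.0143), but not in array set 1 alone, at -0.29 (adjusted p = 0.133), or with array weights, at -0.30 (adjusted p = 0.105). It passed in 4 of the 16 fits that left out 1 animal, whose adjusted p ran between 0.0367 and 0.113. Those 4 were without exercised animal 2 or 7 or sedentary animal 2 or 3.

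Of the binding proteins, 0 of 6 probe sets were called. IGFBP1, known chiefly as a liver product that insulin represses, differed by 0.10 log2 on Ssc.451.1.S1_at (7.30 ± 0.10 in exercised and 7.19 ± 0.17 in sedentary animals, SD, n = 8 each, adjusted p = 0.418). Its other probe set, at percentile 7.25 of signal, differed by 0.12 (adjusted p = 0.21). IGFBP2 had 6.83 ± 0.28 in exercised and 6.83 ± 0.33 in sedentary animals, a difference of 0.01 with a 95% interval of -0.30 to 0.31 (adjusted p = 0.985).

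IGFBP5, which binds extracellular matrix as well as IGFs, varied most between animals of one group. It ran between 8.06 and 9.86 with a median of 8.63 in exercised animals, and between 8.07 and 10.46 with a median of 9.11 in sedentary animals. The difference was -0.31 log2 (SE 0.34, 95% interval -1.04 to 0.42, adjusted p = 0.631). Array set 2 was higher by 1.29, and within array set 1 the SD was 0.41 in exercised and 0.46 in sedentary animals, against 0.68 and 0.79 over all arrays. Within the array sets the difference was -0.15 in array set 1 and -0.16 in array set 2, with overlapping groups.

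IGFBP6, which prefers IGF2 over IGF1, had 2 probe sets that followed each other at r of 0.90. The brighter, Ssc.14062.2.S1_a_at, ran between 7.96 and 9.15 with a median of 8.28 in exercised animals, and between 8.51 and 9.19 with a median of 8.60 in sedentary animals. Exercised animal 3 was the highest of its group, and 7 of 8 exercised animals lay below the sedentary mean. The difference was -0.34 log2 (SE 0.15, adjusted p = 0.149), and -0.45 (adjusted p = 0.0238) without exercised animal 3. That was the only 1 of 16 fits leaving out 1 animal in which it passed; over the 16 the difference ran between -0.26 and -0.45, with adjusted p up to 0.264. The other probe set differed by -0.23 (adjusted p = 0.428).

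Genes that act with the family were read from 6 lists, each by the brightest probe set of a gene. For that choice the background was 10% of 6765 genes. Of 95 listed pathway genes 47 were measured, and 1 was higher and 3 were lower in exercised animals, with a median of -0.02 log2. None of the 5 measured partners outside the family was called on the brightest probe set, although a dimmer probe set of PAPPA was called higher. Among the partners IGFALS, which stabilises circulating IGF complexes, differed by -0.23 (adjusted p = 0.0592). STC1 differed by -0.65 (adjusted p = 0.185) and the insulin receptor INSR by 0.19 (adjusted p = 0.198). Of the 7 measured genes of growth hormone signalling, which drives IGF1 transcription, 0 were called, and the transcription factor STAT5A differed by -0.23 (adjusted p = 0.157), although 1 of its dimmer probe sets was called lower.

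Downstream of the receptors, IRS1, an adaptor of the insulin and IGF1 receptors, was higher by 0.19 log2 (4.52 ± 0.05 in exercised and 4.33 ± 0.13 in sedentary animals, SD, n = 8 each, adjusted p = 0.0435) and above the sedentary mean in 8 of 8 exercised animals. Its signal was dim, at percentile 23.2. PPP2CA, a catalytic subunit of protein phosphatase 2A, was the other of 8 measured genes of the PI3K-AKT list to be called, and fell by 0.22 (adjusted p = 0.0456). In the MTOR list 1 of 9 was called: TSC1, a brake on MTOR, fell by 0.34 (adjusted p = 0.0214) on a dim probe set at percentile 27.7. RHEB, the activator of MTOR, differed by -0.24 (adjusted p = 0.0757). In the RAS and MAP kinase list 1 of 6 was called, the kinase RPS6KA3, which fell by 0.37 (adjusted p = 0.0348). Of 12 measured FOXO factors and targets, which AKT holds in check, 0 were called on the brightest probe set. A dimmer probe set of FOXO3 and one of BCL2L11 were called higher. PDK4, a FOXO target that limits glucose oxidation, differed by -0.78 log2 with a wide spread (11.17 ± 0.96 in exercised and 11.95 ± 0.68 in sedentary animals, SD, n = 8 each, adjusted p = 0.206).

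Cell type markers were set beside IGF2 and other family genes. Of the 9 fibroblast markers 7 were measured, all at percentile 70.7 or above, 0 were called, and their median difference was -0.17 log2. The summed level of the list, as the mean deviation of its genes, ran between -0.42 and 0.28 in exercised animals and between -0.41 and 0.49 in sedentary animals. It differed by -0.34 within array set 1, where the bright IGF2 probe sets differed by -0.38 to -0.54. Within array set 2 it differed by 0.25, where they differed by -0.04 to 0.20. Across the 16 arrays the fibroblast level followed the brightest IGF2 probe set at r of 0.37, and of 0.74 with array set means taken out. Both r still include the difference between the training groups. In the same order, r for that probe set was 0.11 and 0.475 with the endothelial list. It was 0.285 and 0.303 with the smooth muscle and pericyte list, and -0.0746 and 0.275 with the macrophage list. The cardiomyocyte list had 0 of 11 called on the brightest probe set, although a dimmer RYR2 probe set was called higher. The list's level differed by 0.06 and ran against IGF2 at r of -0.52, and of -0.70 with array set means taken out. It also ran against IGFBP6 (r of -0.68 both ways) and IGF1 (-0.37, and -0.73 with array set means taken out). The part of any of these lists in the IGF2 difference was not tested. Of 6 measured lymphocyte markers 2 were called higher, CD79B and CD3G, as was 1 of 4 macrophage markers, ITGAM. These were dim, at percentiles 15.5, 37.2 and 29.9. The uncalled markers of these lists differed in both directions. CD4 differed by -0.37, CD14 by -0.29 and CD163 by -0.24, against CD8A by 0.57, AIF1 by 0.43, CD3E by 0.18 and CD2 by 0.05. For CD4 a dimmer probe set was called higher. Of 3 atrial markers 1, NPPA, was called lower. The part of these markers in the family's values was not tested.

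The named genes most like each family gene over the 16 arrays were found among the 5450 other genes at or above the 40th percentile of signal. For IGF2 these were LOC100623720 (r of 0.94), MXRA8 (0.92) and MFAP2 (0.91), of which MFAP2 encodes a protein of elastic microfibrils. With array set means taken out, COL5A1, a fibrillar collagen chain, came first at 0.87. For IGF1 they were GNPDA2 (0.95), FNBP1L (0.91) and LOC100511905 (0.91), and GNPDA2 still led at 0.87 with array set means out. IGF2R was most like ZCCHC8, FAM193B and DAXX (0.90, 0.90 and 0.89). With array set means taken out these r were 0.79, 0.79 and 0.75, and TMEM131 came first at 0.84. In exercised animals ZCCHC8 fell by 0.38 log2 (adjusted p = 0.0367) and FAM193B by 0.47 (adjusted p = 0.0218). IGF1R was most like the collagen chaperone SERPINH1 (0.78), IGFBP1 like SLC25A38 (0.82), IGFBP2 like ANG (0.84) and IGFBP6 like VAMP3 (0.82). With array set means taken out SLC25A38 and ANG still led, but GNB5 led for IGF1R at 0.71 and SEC11A for IGFBP6 at 0.87. IGFBP5 was most like MXRA8 (0.89), but with array set means taken out that r was 0.57. These r values describe arrays that share array set and training group.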

How the data were processed

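Per the labels' protocols, biotin-labelled cRNA from left ventricular total RNA was hybridised to Affymetrix porcine arrays, 1 per animal. The deposited values are log2 signals per probe set, normalized by the authors by a method not given in the sources used here. They ran between 2.87 and 14.86, with nearly equal distributions on all 16 arrays, and were used as deposited. Scanner files were not used here. Precision is limited by the 16 arrays.

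Of 24123 probe sets 188 controls were left out. The platform annotation, possibly dated, gave the symbols: 10069 tested probe sets had 1 symbol, 198 several and 13668 none. RefSeq (Sscrofa11.1) gave gene neighbours only, and no sequence was used. In limma 3.58.1 (R 4.3.3; lmFit, eBayes) each training and sex combination had its own mean, leaving 12 residual degrees of freedom. All p-values are two-sided limma values, adjusted by Benjamini-Hochberg across 23935 probe sets, with 0.05 as the threshold. The labels name separate animals. All 25 members are accounted for; of each list, the genes called and up to 3 more with the smallest p could be named. Members, lists and array sets were chosen with earlier results of these data known. The fit was tested on simulated data. Alternatives were other normalizations, filters on dim probe sets, trended and robust eBayes, array weights, blocks for replicate number and array set, array set 1 alone, no sex term, gene means, and leaving out each animal. Figures were drawn with matplotlib 3.10.9.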

Additional observations from a re-analysis of the deposited data

Results flagged for a closer look

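In 3 of 50 groups of 8 values (25 probe sets in each of the 2 training groups), 1 animal stood far from the other 7 by Dixon's criterion at 95%, and chance flags about 1 in 20 groups. The IGF1 probe set Ssc.16231.2.A1_a_at read 6.0999 in exercised animal 2, with the nearest exercised animal at 6.2597. The IGF2 probe set Ssc.9365.4.S1_a_at read 6.0534 in the same animal, with the nearest at 6.278. That probe set also read 6.064 in sedentary animal 7, with the nearest sedentary animal at 6.2437. None of these probe sets was called for training.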

How the results depend on the processing

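Of 635 refits of single members, 581 kept their direction and their side of the threshold, 24 passed it newly, 14 no longer passed it, and 16 changed sign, 0 of those past the threshold. Ssc.9365.6.A1_x_at passed in 25 of 25 alternatives that tested it, and Ssc.9365.1.S1_at in 11 of 25. The count of family calls, 2 as reported, was 1 above the 40th percentile of signal (631 calls in all). It was 0 above the 60th (77 in all), where neither called probe set was tested. With trended and robust eBayes it was 1, beside 13.7% of all probe sets. It was 8 with the replicate block (14.7% of all probe sets), 5 with the array set as a block (18.1%) and 4 in array set 1 alone (10.3%). When 1 animal was left out it was 1 to 4, beside 10.5% to 13% of all probe sets. It was 1 without exercised animal 1 or 4 or sedentary animal 1 or 4, and 4 without exercised animal 8. Deviations of same-numbered animals correlated at r between -0.03 and 0.39, and 1 of 8 correlated best with its own number. Except for number 6, same-numbered animals shared an array set, so these r cannot tell pairing from array set. The replicate block called 6 bright IGF2 probe sets, Ssc.9365.6.A1_x_at and IGF2R, and 3528 probe sets in all. Signs changed for differences near 0: with array weights IGF1R Ssc.19009.1.S1_at was 0.018 and IGFBP2 -0.0013; in array set 1 alone IGF1 Ssc.16231.1.S1_a_at was -0.19; the mean of the IGF1 probe sets was 0.0695, against -0.04 for the brightest. Leaving out 1 animal, IGFBP2 ran between -0.0697 and 0.0899, IGF1 Ssc.16231.3.S1_a_at between -0.119 and 0.0356, IGF2 Ssc.9365.4.S1_a_at between -0.0140 and 0.0662, and IGF1R Ssc.16058.1.S1_at between -0.113 and 0.0039. Pathway genes called numbered 4. With the array set as a block they numbered 5, among them the same 4, and in array set 1 alone 3, among them only 2 of the 4. These fits were alternatives added after seeing the data. So were the same fits by sex: family calls in females numbered 1, 3 with the block and 2 in array set 1 alone, and in castrated males 0, 1 and 0. The causes were not tested. Array set 2, with 5 arrays, allowed no fit of its own by sex.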
